A study of Mus musculus with 4 samples.

Results

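Early neutrophil precursors were described in 3 single-cell libraries of mouse bone marrow, labelled control, Mll3 deleted and Mll4 deleted. Members were chosen by depth and by granule transcripts. A barcode needed 500 or more genes, 1000 or more gene UMIs (unique molecular identifiers, the count of captured RNA molecules) and no more than 10% mitochondrial UMIs. In addition, S100a8, S100a9, Ngp, Camp, Ltf and Lcn2 had to sum to at least 200 per 10000 gene UMIs, and Retnlg and Mmp8 to less than 5. The rule found 5650 members among 19758 filtered barcodes of the 3 libraries: 1903 of 7768 in control, 1246 of 6341 labelled Mll3 deleted and 2501 of 5649 labelled Mll4 deleted. The whole series held 27166 filtered barcodes in 4 libraries, and the Mll3/4-labelled library, which lies outside the rule, held 17 such cells among 7408.

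Per the labels, all groups were Kit-positive, CD45.2-positive marrow cells taken 10 weeks after transplantation and run on a 10x Genomics 3′ kit; the files also hold counts of barcoded antibodies. Mll3 and Mll4, encoded by Kmt2c and Kmt2d, are related enzymes that methylate histone H3 at lysine 4 of enhancers. The labels used here give no strain, sex, promoter or Cre driver, number of animals, or deleted exons, and do not say which cells of the marrow came from the host. Each group had 1 library, so no test between groups was possible. Intervals below are 95% intervals for counting error only, and every comparison is between libraries.

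Neutrophils arise from granulocyte progenitors, which make the proteases of the primary granules. The cells then stop making those proteases and switch on the secondary granule proteins while they still divide. The secondary granule phase depends on the transcription factor C/EBP epsilon, encoded by Cebpe. Gelatinase, chemokine receptors and other late genes follow when division ends. In marrow, CD117 (the Kit receptor) is lost along this path, and CD11b (integrin alpha M) and Gr1 (the Ly6g and Ly6c antigens) are gained.

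The 250 bases before the start of Fcnb and Chil3, the markers that the gate did not use, and of Cd3d are shown because the results turn on when these genes were on. The sequences are from RefSeq on GRCm38.p6: Fcnb (chr2:28084879-28085128, minus strand), Chil3 (chr3:106167565-106167814, minus strand) and Cd3d (chr9:44981536-44981785, plus strand). They read 5′ to 3′ on the strand of the gene, and capitals mark each match, on either strand, to a C/EBP pattern, TTNNGNAA.
Fcnb: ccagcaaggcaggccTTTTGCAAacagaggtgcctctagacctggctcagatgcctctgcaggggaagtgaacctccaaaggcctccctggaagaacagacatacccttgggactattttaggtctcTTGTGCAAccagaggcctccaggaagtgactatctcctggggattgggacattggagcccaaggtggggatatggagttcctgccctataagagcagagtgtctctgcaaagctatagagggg
Chil3: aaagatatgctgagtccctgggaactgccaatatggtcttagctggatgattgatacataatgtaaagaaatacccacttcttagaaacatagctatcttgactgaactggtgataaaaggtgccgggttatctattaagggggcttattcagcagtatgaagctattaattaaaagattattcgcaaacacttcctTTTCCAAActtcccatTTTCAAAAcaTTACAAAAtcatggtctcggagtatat
Cd3d: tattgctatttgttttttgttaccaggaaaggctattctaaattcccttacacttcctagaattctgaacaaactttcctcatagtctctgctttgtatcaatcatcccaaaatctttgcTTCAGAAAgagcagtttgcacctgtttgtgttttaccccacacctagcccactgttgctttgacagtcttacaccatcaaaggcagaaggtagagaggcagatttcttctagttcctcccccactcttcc
Chil3 had 3 matches, Fcnb had 2 and Cd3d had 1. The gate genes Camp and Ngp, scanned alike but not shown, had 0 and 3. Of 32536 mouse promoter windows of this length, 36.8% had at least 1 match. A match is a description of letters and shows no binding.

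Members of the library labelled Mll4 deleted were the least deeply sequenced. The median member held 14013 UMIs and 2959 genes in control, 14694 UMIs and 3018 genes among Mll3-labelled members, and 5131 UMIs and 1643 genes among Mll4-labelled members. Each library carried 2 hashtag antibodies whose meaning the labels do not give. At a threshold of 64 hashtag counts, chosen after the counts were seen, 6.46%, 11.8% and 9.88% of members carried both hashtags, as against 2.98%, 4.71% and 4.70% of the other filtered barcodes. Values without these barcodes are given where they move a result. The cells of each hashtag are used below to show the spread within a library, not as replicates. Members of different libraries shared at most 2 barcodes. Xist gave 0 UMIs and Y-linked Ddx3y gave 343 in Mll4-labelled members, and Ddx3y gave 0 in the other libraries, so sex and the label cannot be told apart there.

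The targeted genes were measured first. Kmt2c stood at 60.4 CPM (counts per 1000000 gene UMIs, summed over the cells; interval 57.7 to 63.3) in control members, 42.6 (39.9 to 45.4) among Mll3-labelled members and 68.7 (64.5 to 73.1) among Mll4-labelled members. Among Mll3-labelled members, Kmt2c was 32.1 CPM in members with hashtag 1 and 55.3 CPM in members with hashtag 2, beside 62.6 and 58.8 CPM in control. The lower Kmt2c therefore lay mainly in the cells of 1 hashtag. Kmt2d was 35.9 CPM (33.8 to 38.2) in control, 29.9 (27.6 to 32.2) among Mll3-labelled members and 30.8 (28.1 to 33.8) among Mll4-labelled members, so the library labelled Mll4 deleted was not lower in Kmt2d than the one labelled Mll3 deleted. A 3′ tag outside the deleted part need not fall, and the deleted parts are not given in the labels.

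Members were chosen by their own transcript levels, so the gate genes are given as a description. The granule gene sum of the median member was 3667 per 10000 UMIs in control, 3525 among Mll3-labelled members and 3788 among Mll4-labelled members, far from the threshold. Between 200 and 300 lay 14, 28 and 17 members, and just outside, between 100 and 200, lay 79, 86 and 124 barcodes. Erythroid cells, picked after the data were seen by erythroid markers of at least 20 per 10000 with a granule sum below 200, had a median granule sum of 5.68, 4.48 and 19.6 and serve as a reference for free RNA. No UMI of Retnlg or Mmp8 was seen in 48.7%, 65.6% and 68.7% of members, shares that also move with depth.

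All 5 fixed markers of early neutrophil precursors were present in each library. Camp, Ngp and S100a8 were part of the gate. S100a8, a subunit of calprotectin, stood at 80252, 70150 and 124490 CPM, in the order control, Mll3, Mll4. Camp, the cathelicidin precursor, stood at 54210, 47384 and 36032 CPM, and Ngp, neutrophilic granule protein, at 32816, 26805 and 31913 CPM. Fcnb and Chil3 were not used by the gate. Fcnb, the lectin ficolin B, was at 801, 932 and 913 CPM, and Chil3, a chitinase-like protein of the secondary granules, at 10883, 8463 and 13956 CPM. At a common depth of 2000 UMIs, Fcnb was seen in 64.3%, 68.1% and 61.4% of members and in 0.325%, 0.402% and 1.15% of erythroid cells. At full depth the shares of members were 91.8%, 93.8% and 78.4%. Cebpe, the driver of this phase, stood at 739, 624 and 556 CPM. The markers thus place members in the neutrophil lineage in all 3 libraries. Late neutrophils, defined below, shared them, with Chil3 at 8870 CPM and Cebpe at 649 CPM in control. Fcnb was seen in 31.2%, 15.2% and 40.7% of late neutrophils at 2000 UMIs, smaller shares than in members.

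Surface proteins gave a readout that the gate did not use. In control, the median member bound 306 counts of CD11b antibody (quartiles 200 to 502), 472 of Gr1 (275 to 835.5) and 177 of CD16_32, the Fc gamma receptors (136 to 226). The other filtered barcodes of control had medians of 4, 26 and 14. CD117 was lower on members, at 59 counts (45 to 82), than on the other cells, at 204, although the labels describe the sort as Kit-positive. CD48, a receptor of early blood cells, was lower too, at 168 against 621 counts. The same directions were seen in both other libraries: CD117 was 67 against 251 counts for Mll3 and 70 against 195 for Mll4, and CD11b was 329.5 against 4 and 379 against 6.

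**Figure D1:**
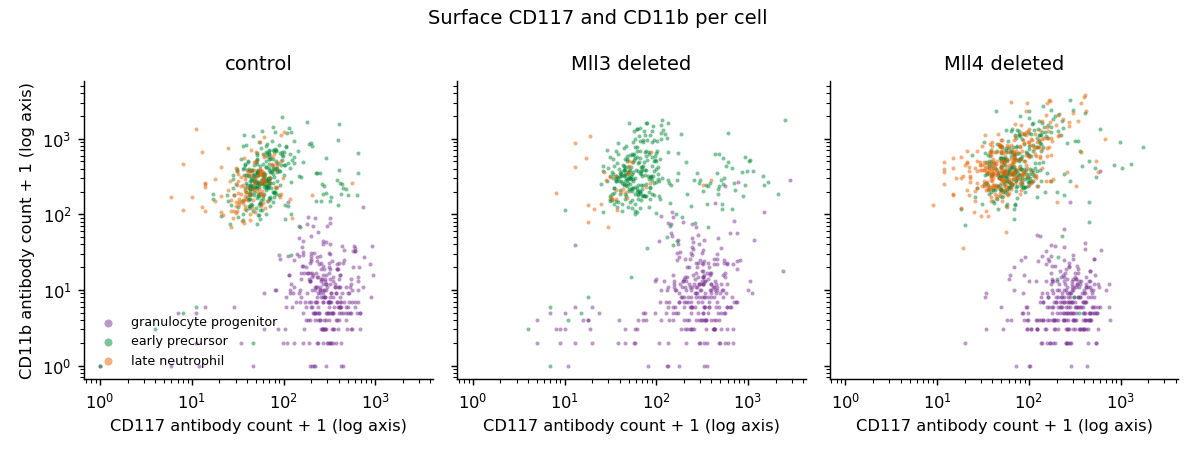
CD117 antibody counts (x axis, count + 1, log) against CD11b antibody counts (y axis, count + 1, log) for up to 300 cells per class in each of the 3 libraries. Early precursors lie with late neutrophils at high CD11b (control medians 306 and 239.5) and apart from granulocyte progenitors (median 8).

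A minority of members kept high CD117. At 200 counts or more, a threshold set after the data were seen, lay 145 of 1903 members in control (7.62%; 6.47 to 8.90), 183 of 1246 among Mll3-labelled members (14.7%; 12.8 to 16.8) and 234 of 2501 among Mll4-labelled members (9.36%; 8.24 to 10.6). Of these CD117-high members, 51.7%, 63.4% and 49.1% carried both hashtags, as against 2.73%, 2.92% and 5.82% of the other members. Their median UMI counts were 28388, 28693 and 9779; those of the other members were 13759, 14118 and 5036. How many CD117-high members are single cells was not tested.

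Members lay between 2 stages cut from the same libraries. Granulocyte progenitors were barcodes under the granule threshold with Elane plus Prtn3 of at least 20 per 10000 (1050, 1072 and 693 cells). Late neutrophils passed the granule threshold with Retnlg plus Mmp8 of at least 5 (130, 33 and 505 cells). These classes were cut on granule genes, so the differences between them are a description. The 16 secondary granule genes summed to 1252 CPM in control granulocyte progenitors, 126880 in early precursors and 127810 in late neutrophils. Granulocyte progenitor markers (Elane, Prtn3, Mpo, Ctsg, Ms4a3 and Prss57) went the other way, at 25532, 2848 and 876 CPM. Late neutrophil markers were at 16.4, 160 and 4953 CPM. The secondary granule list was at nearly the same level in early precursors and late neutrophils, while the late markers were far lower in early precursors. The cut itself set these levels in part. Ltf, Camp, Ngp and Lcn2 of the secondary list, Elane and Prtn3 of the progenitor markers, and Retnlg and Mmp8 of the late markers defined the classes.

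Outside the gate genes, Ly6g showed the largest ratio of control early precursors over granulocyte progenitors, at 175 against 0.301 CPM. Ly6g encodes the neutrophil antigen seen by the Gr1 antibody. Fpr2, a formyl peptide receptor, Olfm4, a secondary granule protein, and Cd177, a neutrophil surface protein, followed with 67.7, 84.9 and 796 CPM against 0.129, 0.172 and 2.37 CPM. The genes lower than in granulocyte progenitors included those of other lineages: Prg2, an eosinophil granule protein, at 0.514 against 58.5 CPM, F13a1 at 5.79 against 130 CPM and Irf8, a factor of monocytes and dendritic cells, at 8.80 against 148 CPM. Against late neutrophils, Elane (neutrophil elastase) was higher, at 921 against 146 CPM, as was Prtn3 at 821 against 208 CPM. Mmp9, the gelatinase, was lower, at 52.9 against 695 CPM, as were S100a6 at 272 against 1656 CPM and the chemokine receptor Cxcr2 at 30.8 against 142 CPM.

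**Figure D2:**
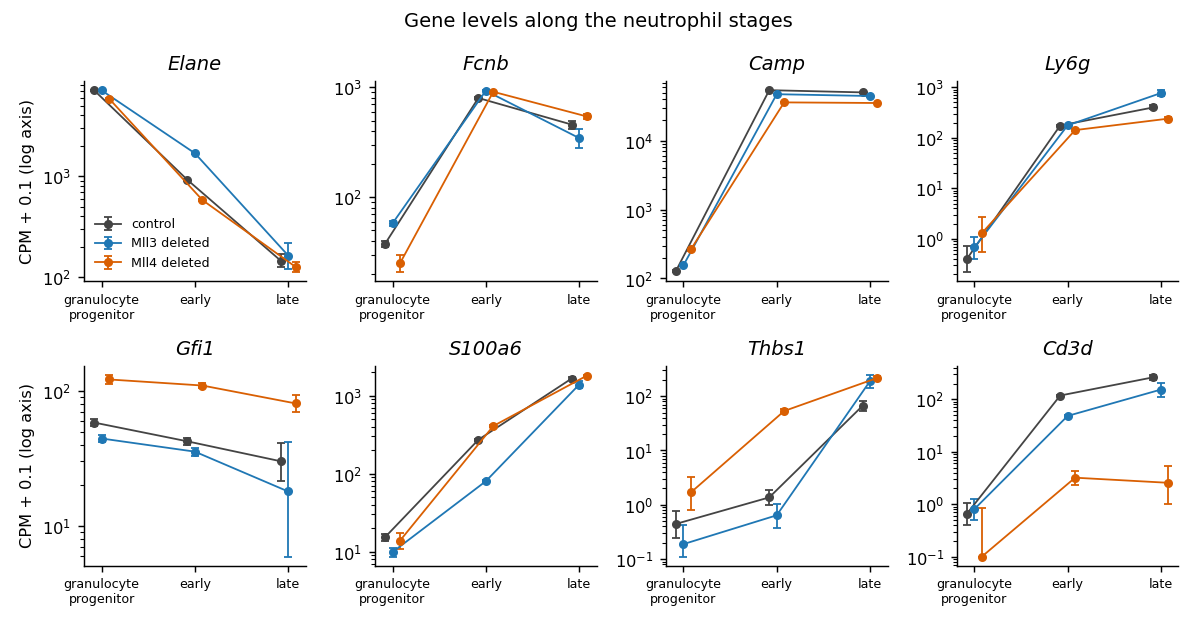
Level of 8 genes (y axis, CPM + 0.1, log) in granulocyte progenitors, early precursors and late neutrophils of the 3 libraries; bars are Poisson intervals for counting error. Camp and Ly6g are already high at the early stage, and Cd3d among Mll4-labelled early precursors is at 3.11 CPM where control reaches 118 CPM.

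Early precursors carried transcripts of cell division. The 24 genes of G2 and mitosis summed to 11133 CPM in control members, above 3395 CPM in granulocyte progenitors and 9450 CPM in late neutrophils. Thinned to 2000 UMIs per cell, 88.8% (87.3 to 90.2) of control members, 88.6% (86.7 to 90.4) of Mll3-labelled members and 85.8% (84.3 to 87.1) of Mll4-labelled members had a UMI of Mki67 or Top2a. Late neutrophils had 51.2%, 27.3% and 54.3%, and erythroid cells 73.6%, 77.2% and 74.6%. The full-depth shares of members were 98.1%, 98.7% and 90.6%, and thinning left out 40, 40 and 20 members. Cytosolic ribosomal protein genes fell along the stages: they summed to 303000 CPM in control granulocyte progenitors, 92007 in early precursors and 71533 in late neutrophils. The 7 NADPH oxidase genes, which make the respiratory burst, summed to 915, 5136 and 6025 CPM.

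Members differed among themselves in the level of primary granule transcripts. At 50 or more UMIs per 10000 of Mpo, Elane, Prtn3 and Ctsg, which the gate did not use, lay 150 members of control (7.88%; 6.71 to 9.19), 204 of the library labelled Mll3 deleted (16.4%; 14.4 to 18.5) and 133 of the library labelled Mll4 deleted (5.32%; 4.47 to 6.27). In control, Elane was 8574 CPM in these members and 140 CPM in the others. Ly6g went the other way, at 34.0 against 189 CPM, as did the G2 and mitosis list at 5823 against 11675 CPM. Ribosomal protein genes summed to 203380 against 80645 CPM, and Cebpa, the factor of granulocyte progenitors, was 34.0 against 5.47 CPM. Fcnb was higher in the members with more primary granule transcript, at 1364 against 744 CPM, whereas Ltf, lactoferrin, was lower at 1576 against 8114 CPM. CD117 was higher there as well, with medians of 126.5 against 57 counts. The Fcnb order was the same among Mll3-labelled members (1504 against 803 CPM) and Mll4-labelled members (1291 against 885 CPM). These members also had a lower granule sum, with control medians of 1351 against 3713 per 10000, and more mitochondrial UMIs, at 2.66% against 0.902%. Both hashtags were carried by 14.7%, 17.2% and 30.8% of them, as against 5.76%, 10.7% and 8.70% of the other members. With 1 hashtag only, their share was 6.96% (5.82 to 8.25), 14.4% (12.4 to 16.6) and 4.04% (3.26 to 4.94), control Fcnb was 1698 against 782 CPM and control CD117 111 against 56 counts. How many of them are single cells was not tested.

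Early precursors made up 24.5% (23.5 to 25.5) of filtered barcodes in control, 19.6% (18.7 to 20.6) of those labelled Mll3 deleted and 44.3% (43.0 to 45.6) of those labelled Mll4 deleted. The log2 ratio of shares against control was −0.32 (−0.41 to −0.23) for Mll3 and 0.85 (0.78 to 0.92) for Mll4. By hashtag, the shares were 24.5% and 23.2% in control, 12.7% and 25.8% for Mll3, and 39.9% and 46.3% for Mll4. Both hashtags of the library labelled Mll4 deleted lay above every control value. The lower share of the library labelled Mll3 deleted rested on hashtag 1, the hashtag with the lower Kmt2c. With hashtag 2 alone the ratio was 0.16 (0.03 to 0.28), on the other side of 0. A share of a Kit-positive sort also depends on the sort and on the other cell types, and how much of each difference comes from there was not tested.

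**Figure D3:**
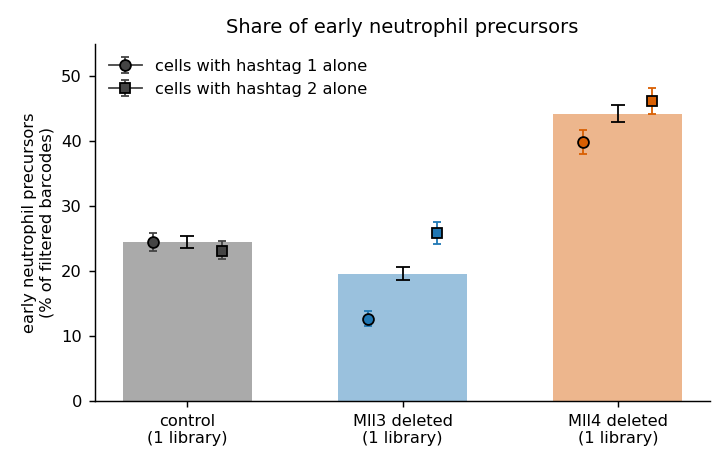
Early neutrophil precursors as a percentage of filtered barcodes (y axis) in 3 libraries; bars are whole libraries, circles and squares the cells of each hashtag alone, and error bars exact binomial intervals. The Mll4-labelled library stands at 44.3%, and the Mll3-labelled library splits into 12.7% and 25.8%.

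Against control, Mll3-labelled members had less S100a6 and Cd3d. The primary granule list had a median ratio above 0 and the late list one below 0, with few or no genes past 2-fold. Of 5189 genes with at least 20 CPM in either library, 79 were at least 2-fold higher (1.52%) and 17 at least 2-fold lower (0.328%). Most of the higher genes depended on barcodes with both hashtags: without these, 12 genes were 2-fold higher, of which 8 were among the 79, and 9 were lower, of which 8 were among the 17. The split between higher and lower calls also moved with scaling, from 82.3% higher to 58.5% when the 8 gate genes were left out of the totals. In every pairing of hashtags 8 of the 79 and 4 of the 17 were past 2-fold. The median ratio over all tested genes was 0.05.

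Among Mll3-labelled members none of 11 measured primary granule genes passed 2-fold, and 9 of 11 lay above 0, with a median log2 ratio of 0.60. Of all tested genes, 55.4% lay above 0. Elane was 1691 against 921 CPM (0.88), Prtn3 1607 against 821 CPM (0.97), and Mpo, myeloperoxidase, 778 against 435 CPM (0.84). Members at or above 50 per 10000 of Mpo, Elane, Prtn3 and Ctsg were 16.4% against 7.88%. In them Elane was 8208.5 against 8574 CPM, and in the other members 214 against 140 CPM. The median of the primary list in the other members was 0.38. Elane also differed in the erythroid cells of the same libraries, at 135 against 45 CPM. The part of free RNA in the Elane ratio was not tested. Of 16 secondary granule genes none passed 2-fold and none lay above 0, with a median of −0.33. Ltf, Camp, Ngp and Lcn2 of that list were gate genes, so the list is given as a description. Without the barcodes that carry both hashtags or neither, the median of the primary list was 0.60 and that of the secondary list −0.17. In cells below the granule threshold these medians were −0.07 and −0.15.

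Of all tested genes, 55.4% lay above 0 and 0.328% were 2-fold lower among Mll3-labelled members. Of 13 measured genes of the late list, 1 lay above 0, the median was −0.51, and 3 were 2-fold lower. These were Retnlg (32.9 against 69.0 CPM, a gate gene that the rule keeps low), Mmp9 (25.1 against 52.9 CPM, −1.08) and Fpr2 (33.1 against 67.7 CPM, −1.03). With 1 hashtag only, Mmp9 was at −0.87 and Fpr2 at −0.84, so neither remained past 2-fold, and none of the list was 2-fold lower in every pairing of hashtags. The lowest gene by rule was S100a6, a calcium-binding S100 protein, at 79.8 CPM (76.1 to 83.6) against 272 (266 to 278), a log2 ratio of −1.77 (−1.84 to −1.69). By hashtag S100a6 was 58.9 and 113 CPM among Mll3-labelled members and 276 and 285 CPM in control. These 4 values do not overlap between the libraries. S100a6 was 1382 against 1656 CPM in late neutrophils, and in early precursors with no Retnlg or Mmp8 UMI it was 64.6 against 225 CPM. The chemokine receptor Cxcr4, which holds neutrophils in marrow, was 41.0 against 83.8 CPM (−1.03), and −0.90 with 1 hashtag only, short of 2-fold.

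Other lower genes of the library labelled Mll3 deleted past 2-fold by the naming rule were Stk39 (26.1 against 57.0 CPM), Plbd1 (114 against 233 CPM) and Stfa1 (24.8 against 50 CPM), the last of a family of near-identical stefins whose reads can be split. With 1 hashtag only, Stk39 was at −0.96, Plbd1 at −0.85 and Stfa1 at −0.64, so all 3 lost the call, and the pairings of hashtags for Stfa1 ran from −1.38 to 0.16. Of the 8 lower named genes past 2-fold, 2 (S100a6 and Cd3d) stayed so with 1 hashtag only, and 1 (S100a6) in every pairing. Plaur, Ifitm6, Ifitm3 and Rnaset2a completed the 12 lowest at log2 ratios of −0.90, −0.90, −0.88 and −0.86, short of 2-fold. All 12 lay below 0 in cells under the granule threshold too, and 2 were past 2-fold there.

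Among the 12 highest genes of the library labelled Mll3 deleted, 5 stayed 2-fold higher with 1 hashtag only: Pttg1, Gm10076, Pf4, Hist1h2ap and Rpl35. Pttg1, which encodes securin of mitosis, was 134 against 9.01 CPM (3.90), and by hashtag 133 and 151 against 7.65 and 7.76 CPM. Gm10076, a predicted gene, was 416 against 94.1 CPM (2.14), Hist1h2ap, a histone gene with near-identical copies, 1346 against 448 CPM (1.59), and Rpl35, a ribosomal protein, 847 against 319 CPM (1.41). In cells below the granule threshold Pttg1, Gm10076 and Hist1h2ap were also past 2-fold, at 1.71, 1.56 and 1.74, and Rpl35 was at 0.80. The ratios of these 4 genes lay above 0 in both sets of cells. The erythroid and platelet genes Car1 (527 against 184 CPM), Car2 (291 against 128 CPM), Blvrb (176 against 71.8 CPM) and Pf4 (86.9 against 24.8 CPM) were also among the 12. Car1 is itself one of the 8 erythroid markers, all detected in each library, which summed to 242 CPM in control against 663 CPM among Mll3-labelled members. Without Car1 the other 7 summed to 58.4 against 136 CPM in all members and 26.7 against 58.8 CPM with 1 hashtag only. At least 20 per 10000 of the 8 markers was seen in 1.31% of control and 3.77% of Mll3-labelled members. Pf4 is one of the 6 megakaryocyte markers, all detected, which summed to 34.2 and 101 CPM, and the 5 without Pf4 to 9.42 and 14.3 CPM. The part of other cells in these ratios was not tested. With 1 hashtag only, Car1 and Blvrb were at 0.79 and Car2 at 0.70. Minpp1, Mt2, Mrpl52 and Slc25a4, the remaining named genes, ranged from 0.22 to 0.68 with 1 hashtag only, where 1.18 to 1.21 was seen in all members.

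Ribosomal protein genes had ratios on 1 side among Mll3-labelled members: all 77 measured genes lay above 0, with a median of 0.53, beside 55.4% of all tested genes above 0 with a median of 0.05. With 1 hashtag only the median was 0.28, and 1 of the 77 (Rpl35) passed 2-fold. Mitochondrial transcripts had a median of 0.65, and 2 of 12 passed 2-fold, mt-Nd4l at 1.41 and mt-Atp8 at 1.10. Of all tested genes, 1.52% were 2-fold higher. Among the 24 genes of G2 and mitosis only Pttg1 passed 2-fold, 2 lay above 0, and the median was −0.20. The 23 measured S phase genes had a median of 0.22. The members were gated alike and differed in primary granule share (16.4% against 7.88%), and in members below that threshold the ribosomal median was 0.50 and the late gene median −0.38.

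**Figure D4:**
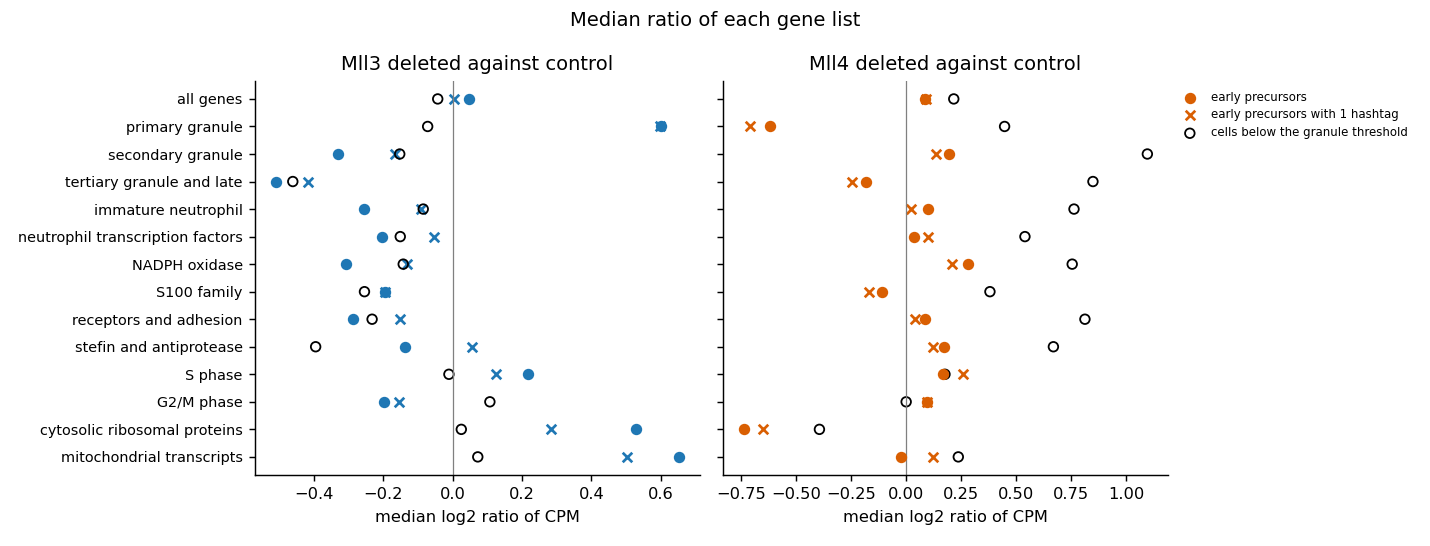
Median log2 ratio of CPM (x axis) of each gene list against control, for all early precursors (filled), those with 1 hashtag (crosses) and cells below the granule threshold (open). Primary granule genes stand at 0.60 for Mll3 and −0.62 for Mll4, and ribosomal protein genes at 0.53 and −0.74.

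Mll4-labelled members had almost no Cd3d, and more Thbs1, Gfi1 and Fpr2 than control members. Of 5230 tested genes, 161 were at least 2-fold higher (3.08%) and 152 at least 2-fold lower (2.91%), around a median of 0.09. Without barcodes that carry both hashtags these were 158 and 83, of which 139 and 79 were among the first counts. In every pairing of hashtags 102 of the 161 and 58 of the 152 were past 2-fold. With median-of-ratios scaling, which lowers all log2 ratios by 0.09, 107 genes were higher and 224 lower (32.3% of calls higher, as against 51.4%), and with the 8 gate genes left out of the totals 201 were higher and 119 lower (62.8%). Of the 161 higher genes, 123 were also 2-fold higher in cells below the granule threshold, which leave out late neutrophils. Of the 152 lower genes, 26 were also 2-fold lower in those cells. The median member of this library had 5131 UMIs, as against 14013 in control, and depth cannot be told apart from the label.

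Cd3d encodes the delta chain of the CD3 complex of T cells and lies at chr9:44981786-44987339 on GRCm38, overlapping no other gene of the GENCODE M21 annotation. In control its level rose along the stages, from 0.559 CPM in granulocyte progenitors to 118 CPM (114 to 122) in early precursors and 264 CPM (236 to 293) in late neutrophils. In the same stages labelled Mll3 deleted the values were 0.707, 48.2 (45.3 to 51.1) and 154 CPM (111 to 207). Labelled Mll4 deleted, 45 UMIs in 14491806 gave 3.11 CPM (2.27 to 4.16) in early precursors, and late neutrophils had 2.46 CPM. The log2 ratio to control was −5.25 (−5.71 to −4.83) for Mll4 and −1.29 (−1.39 to −1.19) for Mll3.

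By hashtag, Cd3d was 125 and 125 CPM in control, 41.4 and 68.3 CPM among Mll3-labelled members, and 3.25 and 2.89 CPM among Mll4-labelled members, with no overlap between libraries. At 2000 UMIs per cell, 19.6% (17.8 to 21.5) of control members, 12.2% (10.4 to 14.2) of the Mll3-labelled and 0.766% (0.462 to 1.19) of the Mll4-labelled members had a Cd3d UMI, and at full depth 69.2%, 46.9% and 1.72%. T cell genes were at or near 0: the neighbouring Cd3e gave 2, 0 and 1 UMIs over all members and Cd3g 5, 2 and 0, where a count of 0 allows up to 3. The 6 T and NK cell markers, of which 1 was at 0 in each library, summed to 0.719, 0.900 and 1.10 CPM. The differences in Cd3d were larger than counting error and than the spread between hashtags.

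Thbs1, which encodes the matrix protein thrombospondin 1, stood at 1.27 CPM (0.892 to 1.75) in control members, 0.540 CPM among Mll3-labelled and 53.3 CPM (49.6 to 57.2) among Mll4-labelled members. The log2 ratio to control was 5.39 (4.92 to 5.91) for Mll4, and the hashtags of that library gave 39.9 and 58.5 CPM. It lies at chr2:118111876-118127133, and Gm29233, annotated on the other strand, overlaps it. In control, Thbs1 was a late gene, at 0.344 CPM in granulocyte progenitors and 66.3 CPM in late neutrophils. Late neutrophils labelled Mll3 deleted had 189 CPM and those labelled Mll4 deleted 218 CPM. Among early precursors with no Retnlg or Mmp8 UMI, Thbs1 was 42.4 CPM among Mll4-labelled members and 1.69 CPM in control. Such cells were 68.7% of Mll4-labelled and 48.7% of control members. A count of 0 can leave in more late cells at the lower depth of the Mll4-labelled library. At 2000 UMIs per cell, 9.35% (8.23 to 10.6) of Mll4-labelled members and 0.107% of control members had a UMI, beside 18.8% and 1.52% at full depth. The late neutrophil markers summed to 206 CPM in Mll4-labelled members, as against 160 CPM in control members. That list holds the gate genes Retnlg (63.3 against 69.0 CPM) and Mmp8 (19.3 against 4.49 CPM), which the rule keeps low in every member. The sum therefore cannot show whether Mll4-labelled members were later than control members.

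Other late genes varied in direction. Among Mll4-labelled members 4 of 14 measured genes of the late list lay above 0, with a median of −0.18. Of all tested genes, 56.3% lay above 0, 3.08% were 2-fold higher and 2.91% were 2-fold lower. Fpr2 was 2-fold higher, at 203 against 67.7 CPM (1.59), and Mmp25, a membrane metalloproteinase, 2-fold lower at 30.9 against 63.2 CPM (−1.03). Mmp9 was 96.1 against 52.9 CPM (0.86), short of 2-fold, and Cxcr2 was 22.9 against 30.8 CPM (−0.43). Jun, of the immediate early list, was 2-fold higher (1.19), and Bst2, of the interferon list, 2-fold lower (−1.09). S100a6, the lowest gene of the library labelled Mll3 deleted, was 408 against 272 CPM (0.59), with 284 and 542 CPM by hashtag.

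Gfi1, a repressor needed for neutrophil development, was 110 CPM (104 to 115) in Mll4-labelled members, 42.2 CPM (39.9 to 44.6) in control and 35.4 CPM among Mll3-labelled members. By hashtag Gfi1 was 100.1 and 121 CPM against 48.0 and 38.8 CPM in control, with no overlap. It was also higher in granulocyte progenitors (122 against 58.2 CPM) and late neutrophils (80.7 against 30.0 CPM). Of 13 measured neutrophil transcription factors, Gfi1 alone passed 2-fold, and the list had a median of 0.03. Of all tested genes, 3.08% were 2-fold higher and 2.91% were 2-fold lower, so the count for the list lay near that share. Cebpe was at −0.41, Spi1 at 0.01 and Mxd1, a Myc antagonist, at 0.97. Wfdc21, a whey acidic protein family member, was 5648 against 2650 CPM (1.09).

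Primary granule genes had a median ratio of −0.62 among Mll4-labelled members, with 2 of 11 above 0. Over all tested genes 56.3% lay above 0 and 2.91% were 2-fold lower. Of the 11, 1 passed 2-fold, Cst7 (cystatin F) at 13.2 against 27.2 CPM (−1.04), and none did in every pairing of hashtags. In cells below the granule threshold the median of the list was 0.45, on the other side of 0. Elane was 582 against 921 CPM (−0.66), whereas Mpo was 533 against 435 CPM (0.30). Members at or above 50 per 10000 of Mpo, Elane, Prtn3 and Ctsg were 5.32% against 7.88%. In them Elane was 6758 against 8574 CPM, and in the other members 130 against 140 CPM. The median of the primary list in the other members was −0.38. Secondary granule genes had a median of 0.19, and none of 16 passed 2-fold. Ltf, Camp, Ngp and Lcn2 of this list were gate genes, so the list is given as a description. Camp was at −0.59 and Ltf at 0.39, and outside the gate Cd177 was at 0.54 and Chil3 at 0.36. In cells below the granule threshold the secondary granule median was 1.10. Erythroid cells of this library also had more gate transcripts, with a median granule sum of 19.6 against 5.68 in control. The part of free RNA in the secondary granule ratios was not tested. S100a10 was the S100 gene past 2-fold, at 7.73 against 31.4 CPM (−2.02).

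A few genes were 2-fold lower among Mll4-labelled members and had a ratio above 0 in cells below the granule threshold. Chil1, a chitinase-like protein, was 90.1 against 182 CPM (−1.02), Hdc, histidine decarboxylase, 28 against 65.4 CPM (−1.22), Mapk13, a p38 kinase, 51.3 against 105 CPM (−1.04) and Stfa1 21.5 against 50 CPM (−1.22). In cells below the granule threshold their log2 ratios were 1.17, 1.08, 0.25 and 0.67, but Chil1, Mapk13 and Stfa1 were at only 0.548, 0.676 and 0.135 CPM in those control cells. In late neutrophils all 4 were lower than in control, as in members: Chil1 was 80.7 against 280 CPM, Hdc 30.7 against 163 CPM, Mapk13 37.3 against 143 CPM and Stfa1 31.1 against 134 CPM. Chil1, Hdc and Mapk13 were chosen after their values were seen.

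Most other named genes had ratios of the same direction in cells of the same library below the granule threshold. Pttg1 was 138 against 9.01 CPM (3.94), Gm10076 588 against 94.1 CPM (2.64), Hist1h2ap 1915 against 448 CPM (2.09) and Rps29 3989 against 1269 CPM (1.65). Their ratios below the granule threshold were 1.62, 2.82, 2.17 and 1.93. Hist2h2aa1, Hist1h2br, Rnf26 and Cenpb were at 1.80, 1.77, 1.75 and 1.59, with 1.93, 2.08, 1.70 and 0.95 below the threshold. The receptors Lilr4b and Lilrb4a, near-identical copies whose reads can be split, were at 1.69 and 1.64, with 5.44 and 4.13 below the threshold, and Crip1 was at 1.65 and 0.65. All 12 highest genes were past 2-fold in every pairing of hashtags, and 9 were past 2-fold in cells below the granule threshold. Pttg1, Gm10076 and Hist1h2ap were named in both comparisons, which share the control library.

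Of the 12 lowest genes of the library labelled Mll4 deleted, 7 were past 2-fold in every pairing of hashtags and 4 in cells below the threshold. They included Hist1h3i at 41.7 against 127 CPM (−1.60), Smim5 at 17.7 against 52.8 CPM (−1.58), Vamp5 at 61.3 against 173 CPM (−1.50), Siva1 at 71.5 against 191 CPM (−1.42), Selenoh at 43.6 against 115 CPM (−1.40) and Mrps24 at 35.8 against 91.0 CPM (−1.35). The erythroid genes Car1 (61.6 against 184 CPM), Blvrb (22.4 against 71.8 CPM) and Prdx2 (36.5 against 114 CPM) were among the 12 lowest. Car1 is itself one of the 8 erythroid markers, all detected, which summed to 78.4 CPM against 242 CPM in control; the 7 without Car1 summed to 16.8 against 58.4 CPM, and their part in these ratios was not tested. With 1 hashtag only, Car1 was at −0.92 and Blvrb at −0.97, and 10 of the 12 genes stayed past 2-fold. Nme1 and Nhp2 were at −1.46 and −1.36, and at −1.09 and −1.02 with 1 hashtag only.

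Ribosomal protein genes had a median ratio of −0.74 among Mll4-labelled members, and 12 of 77 lay above 0, beside 56.3% of all tested genes. Of the 77, 15 were 2-fold lower and 4 higher, where 2.91% and 3.08% of all tested genes were. In every pairing of hashtags 6 were 2-fold lower and 4 higher, where 58 and 102 of all 5230 tested genes were. Rpl12 (428 against 1015 CPM) and Rps18 (672 against 1541 CPM) were among the lower, and Rps29, Rps28, Rpl38 and Rps27 were the higher at 1.65, 1.45, 1.29 and 1.05. Below the granule threshold the median was −0.39 and the same direction held in granulocyte progenitors, at −0.47. Cell cycle lists lay near all genes, with a median of 0.17 for S phase and 0.10 for G2 and mitosis, where Pttg1 alone passed 2-fold. Receptors and adhesion genes had a median of 0.09 and none of 17 passed 2-fold. Immature neutrophil genes had a median of 0.10 with Gfi1 alone past 2-fold.

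**Figure D5:**
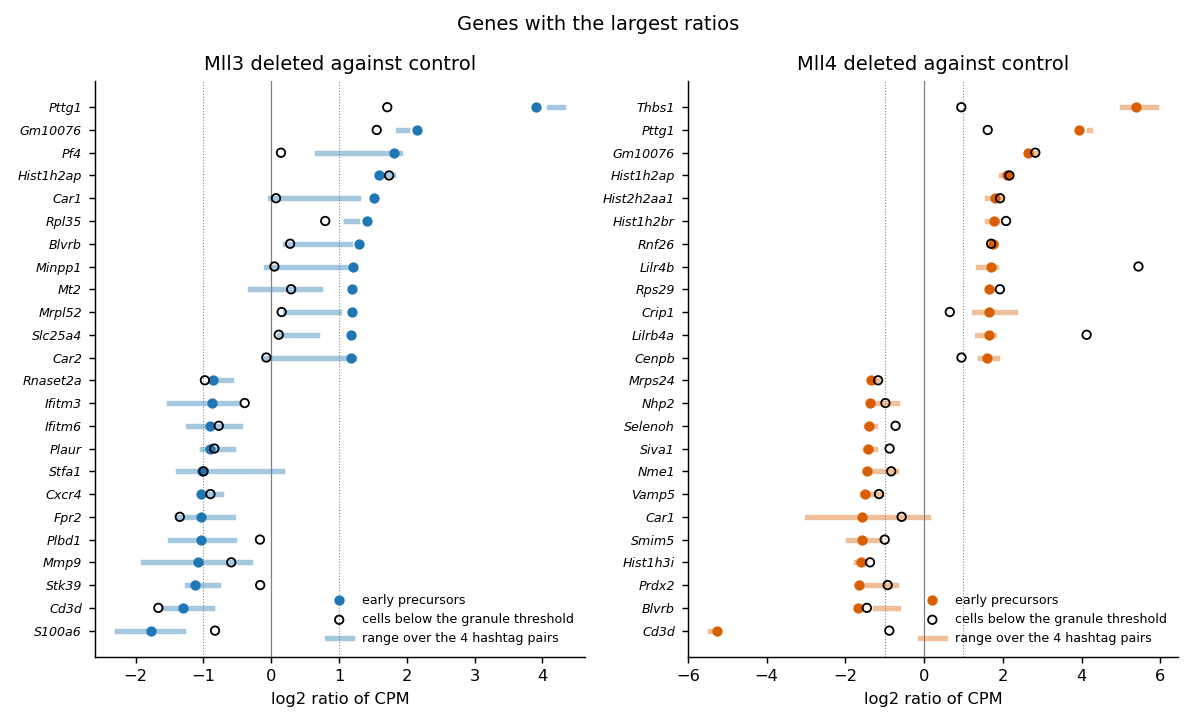
Log2 ratio of CPM against control (x axis) of the 12 highest and 12 lowest genes by the naming rule in each labelled library: filled points are all early precursors, pale bars the range over the 4 pairings of hashtags, open points the cells below the granule threshold. Thbs1 (5.39) and Cd3d (−5.25) stand farthest from 0 among Mll4-labelled members, and at 0.94 and −0.88 in cells below the threshold.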

How the data were processed

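Gene RNA and surface antibodies were read in single cells of 4 libraries, of which 3 are used here. The authors deposited matrices of raw UMI counts, made with Cell Ranger 6.1.2 on mm10 per the submitters' processing notes, with no normalization; 32285 gene and 15 antibody features are held. GENCODE M21 holds 32235 of these genes. Members and gene lists were chosen with earlier results of these data known. Barcodes were filtered and gated as the report states. Member UMIs were summed per library and given as CPM, a log2 ratio being that of 2 libraries' CPM with no pseudocount and an exact conditional interval. A gene was called at 2-fold with at least 20 CPM in 1 of the 2 libraries. Named genes were the 12 highest and 12 lowest ratios among genes of at least 50 CPM, leaving out Xist, Tsix, Y-linked and mitochondrial genes and the 8 gate genes, plus list genes past 2-fold and the markers. Further named genes were said to be chosen after their values were seen, or came from the stage comparison by the same rule. Shares have exact Clopper-Pearson intervals and levels exact Poisson intervals, all for counting error only. Late genes, erythroid reference cells, hashtag thresholds and the CD117 threshold are described where used. Doublets were scored with Scrublet in scanpy 1.11.5, and removal of the highest scores, at 0.8% of barcodes per 1000, is an alternative. Counts were not corrected for free RNA. Alternatives were other gates, scalings, pseudocounts, filters, doublet removal, thinning to 2000 UMIs, and each hashtag alone. The ratio code was tested on simulated data.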

Additional observations from a re-analysis of the deposited data

How the results depend on the processing

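No paired analysis was possible because each group has 1 library. The share of the Mll4-labelled library stayed above control in every alternative, with a log2 ratio of 0.75 at Retnlg plus Mmp8 below 2 and 0.70 and 0.995 with hashtag 1 and hashtag 2 alone. The Mll3 ratio was −0.19 at Retnlg plus Mmp8 below 2, −0.95 with hashtag 1 alone and 0.16, turned in direction, with hashtag 2 alone. Counts of genes past 2-fold moved by over 1.5 times as follows, higher and then lower. For Mll3 they were 38 and 27 with gate genes left out of the totals, 13 higher with the mean over cells, 35 and 6 at a pseudocount of 5 CPM, 230 and 50 at 5 CPM or more, 16 and 3 at 100 CPM or more, 16 and 11 without the highest doublet scores, and 12 and 9 without both-hashtag barcodes. They were 10 lower in members below the primary granule threshold, 22 higher at a granule threshold of 400, 36 higher after thinning, 16 and 37 with hashtag 1 alone, and 18 and 8 with hashtag 2 alone. For Mll4 they were 107 higher with median-of-ratios scaling, 99 lower with the mean over cells, 102 and 100 at a pseudocount of 5 CPM, 280 and 355 at 5 CPM or more, 59 and 57 at 100 CPM or more, 72 lower without the highest doublet scores, 83 lower without both-hashtag barcodes and 70 lower with hashtag 1 alone. The filter and pseudocount settings test fewer or more genes by construction; for the rest the cause was not tested. A list median was counted as turned only where the medians of its genes' interval bounds lay on 1 side of 0 in all members. Sign changes of other lists are left out. By this rule list medians turned for Mll4 late genes (0.28) and S100 genes (0.046) at 100 CPM or more, and for interferon genes (−0.21) with hashtag 1 alone. For Mll3 they turned for stefin and antiprotease genes (0.057 without the highest doublet scores, 0.056 without both-hashtag barcodes, 0.037 after thinning, 0.059 with hashtag 1 alone), for interferon genes (0.00030 after thinning, 0.028 with hashtag 2 alone) and for S phase genes (−0.015 with hashtag 2 alone). The hashtag settings were chosen after seeing the data. Depth limits genes under 20 CPM most in the Mll4-labelled library.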
